A study of Homo sapiens with 6 samples.

Results

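V5-GSE1 peaks at the RUNX and core-binding factor genes were examined in NB4, a cell line from human acute promyelocytic leukaemia. A member peak overlapped the gene span of RUNX1, RUNX2, RUNX3, CBFB, CBFA2T2, CBFA2T3 or RUNX1T1, extended by 50 kb on each side. By this rule 36 of the 21401 peaks found in DMSO-treated cells and 12 of the 13233 peaks found in MC2580-treated cells were members, 48 of 34634 in all. The choice used position alone and no score.

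The RUNX proteins are transcription factors that bind DNA through a Runt domain at the consensus TGTGGT, and CBFB is the partner that raises their affinity for DNA without binding it itself. RUNX1 is required for definitive haematopoiesis, RUNX2 for bone formation, and RUNX3 acts in T lymphocytes and sensory neurons. CBFA2T2, CBFA2T3 and RUNX1T1 form the ETO family of corepressors, which do not bind DNA by themselves and recruit histone deacetylases. RUNX1, CBFB, CBFA2T3 and RUNX1T1 are all broken by recurrent chromosomal rearrangements in acute myeloid leukaemia. Each RUNX gene has a distal and a proximal promoter that lie far apart.

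GSE1 is a protein associated with the histone demethylase LSD1, and MC2580 inhibits LSD1. All cells were NB4 cells transduced with a lentiviral pLEX_307 vector, which was either empty (EV) or carried GSE1 transcript variant 2 with a V5 tag. GSE1 cells received DMSO or 2 µM MC2580 for 24 h, the EV cells were untreated per the labels, and chromatin was precipitated with an anti-V5 antibody. There were 3 ChIP libraries (EV, GSE1 DMSO and GSE1 MC2580) and their 3 inputs, with 1 library in each group. The tagged protein is exogenous, and its amount after each treatment was not measured in the files analysed here. The study reports a fall of the tagged protein after MC2580, much like that of endogenous GSE1. The part of this fall in the differences between the lists was not tested. Only the peak lists of the GSE1 libraries were analysed, and both used the same EV ChIP as a control, so that a chance dip of that library could place a peak in both. The files hold no expression values, so NB4 identity was not checked by markers. Without replicates and with depth unknown, whatever separates the lists separates a pair of libraries, and no test between the treatments was made. Shares and ratios carry 95% Wilson intervals, which hold counting error alone because peaks do not replicate a condition.

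Each peak has a score, the peak caller's minus 10 times log10 of the p-value, so that the calling threshold of 1e-05 equals a score of 50. The score grows with depth as well as with enrichment. Positions are in hg38, counted from 1, and genes are those of GENCODE version 44. Distances to a transcription start site (TSS) run from the nearest edge of the peak, and are 0 where the peak covers a TSS. Introns and exons are numbered along the Ensembl canonical transcript.

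The highest-scoring sites of the group lay in RUNX1 and beside CBFA2T3. The 4 sequences printed are those described below, and they are not the 4 highest by score. Each line is the 200 bp at the centre of a DMSO peak, read from hg38 on the minus strand, which is the coding strand of all 3 genes concerned. Capitals mark every match, on either strand, to the RUNX word TGTGGT, the PU.1 word GAGGAAGT, the AP-1 word TGANTCA, the CEBP word TTGCNNAA or the GATA word AGATAA. The centre of a peak is not its summit, which the lists do not give.
RUNX1 intron 2, highest score (chr21:34908340-34908539): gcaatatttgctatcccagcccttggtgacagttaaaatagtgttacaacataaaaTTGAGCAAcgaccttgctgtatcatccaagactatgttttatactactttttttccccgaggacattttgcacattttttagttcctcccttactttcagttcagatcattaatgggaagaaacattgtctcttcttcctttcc
RUNX1 intron 5 (chr21:34865696-34865895): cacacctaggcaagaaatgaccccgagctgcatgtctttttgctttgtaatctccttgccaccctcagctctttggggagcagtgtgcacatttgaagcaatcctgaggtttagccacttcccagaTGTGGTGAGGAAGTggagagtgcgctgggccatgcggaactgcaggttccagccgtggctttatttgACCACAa
CBFA2T3 upstream of the distal TSS (chr16:88978806-88979005): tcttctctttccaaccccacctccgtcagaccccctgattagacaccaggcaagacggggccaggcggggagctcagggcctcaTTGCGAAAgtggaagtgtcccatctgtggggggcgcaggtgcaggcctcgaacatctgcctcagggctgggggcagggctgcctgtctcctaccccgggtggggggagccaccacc
RUNX3 downstream, found in DMSO alone (chr1:24864101-24864300): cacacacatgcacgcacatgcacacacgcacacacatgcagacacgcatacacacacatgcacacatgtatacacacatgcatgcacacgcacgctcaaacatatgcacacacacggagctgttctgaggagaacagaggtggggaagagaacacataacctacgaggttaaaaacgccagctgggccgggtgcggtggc

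In the intron 5 window a RUNX word at bases 127 to 132 was followed directly by a PU.1 word at bases 133 to 140, both on the strand shown, with another RUNX word on the opposite strand at bases 194 to 199. PU.1 is an ETS factor that acts together with RUNX1 in myeloid cells. The printed windows of RUNX1 intron 2 and CBFA2T3 each held a CEBP word and no RUNX word. Windows of the RUNX1 peaks scoring 1036.66 and 922.64 and of the CBFA2T3 peak scoring 671.81 are not printed. They outscore the intron 5 peak (393.2) and held no RUNX or PU.1 word, and that of 922.64 held a CEBP word. In the RUNX3 window none of these words was present and the dinucleotide CA occurred 41 times. Counting CA or TG, whichever was the more frequent, 99.5% of all DMSO peak centres had fewer.

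Peaks were found at 6 of the 7 genes in DMSO and at 5 of the 7 in MC2580, where 47.9% and 27.3% of 20033 protein-coding genes had a peak in the same window. The member windows, 166 to 1317 kb, were all longer than the median of 127 kb for protein-coding genes. The comparison was not adjusted for length. RUNX1 held 15 DMSO and 5 MC2580 peaks, RUNX2 5 and 1, and RUNX3 4 and 0. CBFB held 2 DMSO peaks and 1 MC2580 peak. Among the ETO genes CBFA2T2 held 3 and 2, CBFA2T3 held 7 and 3, and RUNX1T1 held none in either list. All 6 genes with DMSO peaks thus had fewer peaks in MC2580, as did 81.2% of the 9601 protein-coding genes with a DMSO peak, so that this direction was common to most genes.

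**Figure D1:**
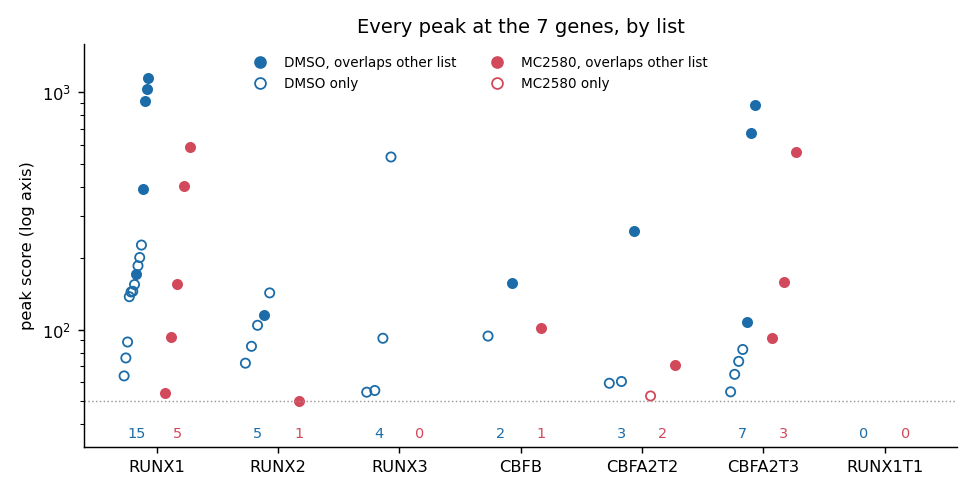
Score of every member peak on a log axis, by gene, in DMSO (blue) and MC2580 (red), with the number of peaks beneath and the calling threshold of 50 dotted. Filled points overlap a peak of the other list, and most open points, found in a single list, lie at 227.15 or below, apart from the RUNX3 peak at 534.11.

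The group had 12 MC2580 peaks for 36 DMSO peaks, a ratio of 0.333 (interval 0.175 to 0.634), against 0.618 over the whole lists. No member window touched a 1 Mb bin crowded with 40 or more distinct peaks, the fullest touched being a bin of CBFA2T3 with 30. Outside such bins the ratio of the lists was 0.425, and both this and 0.618 lie within the interval of the group. On chromosome 21, which carries RUNX1, the lists held 227 DMSO and 180 MC2580 peaks, a ratio of 0.793, and RUNX1 had 15 and 5. Ratios by chromosome count all its peaks, including any in crowded bins, which the RUNX1 window did not touch. The ratio of the lists was 0.310 on chromosome 1, 0.341 on 6, 0.394 on 16, 0.428 on 20 and 0.656 on 8. Only those of chromosomes 8 and 21 lie outside the interval of the group. Of the 36 DMSO peaks, 11 (30.6%, interval 18.0 to 46.9) overlapped an MC2580 peak by at least 1 bp, close to the 33.6% of the whole DMSO list and to the 22.8% outside crowded bins. Of the 12 MC2580 peaks, 11 (91.7%, interval 64.6 to 98.5) overlapped a DMSO peak, against 58.0% of the whole MC2580 list and 54.6% outside crowded bins. The MC2580 peaks at these genes were therefore, with 1 exception at CBFA2T2, sites already called in DMSO. Such overlap was also common along most chromosomes of these genes. On the chromosomes that carry the 12 MC2580 peaks the share was 82.8% (21), 77.7% (16), 68.0% (6) and 56.5% (20), each below 91.7%. It was 93.2% on chromosome 1 and 88.1% on 8, where the group had no MC2580 peak. These shares also count any peaks in crowded bins. All but that of chromosome 20 lie within the interval of the group.

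Overlap rose with the DMSO score. None of the 15 DMSO peaks below a score of 100 was found in MC2580, where the whole list gave 16.4% and peaks outside crowded bins 5.61%. Between 100 and 500 it was 6 of 15, against 49.3% and 36.0%, and at 500 or more 5 of 6 (83.3%, against 94.7% and 90.9%). The shared peaks had a median DMSO score of 393.20 and a range of 108.13 to 1145.61. Peaks found in DMSO alone had a median of 88.610 and a range of 54.44 to 534.11, so that both classes overlapped in score. Sites below the calling threshold are in neither list, so that a site missing from a list need not be unbound.

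RUNX1 (ENSG00000159216.19, chr21:34787801-36004667, minus strand) carried the most peaks. Its span of 1220 kb is long because GENCODE includes transcripts that start far upstream of the distal promoter, and 10 of the 15 DMSO peaks and all 5 MC2580 peaks lay within 50 kb of the 262 kb covered by consensus coding (CCDS) transcripts. The 15 peaks exceeded the number at 97.9% of protein-coding genes, but per 100 kb of window RUNX1 had 1.14 peaks, above 75.4% of genes. CBFA2T3, at 3.46 per 100 kb, was denser than 91.3% of genes and RUNX3, at 2.42, than 86.9%.

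The strongest RUNX1 peaks lay in introns, away from both promoters. The highest, chr21:34907672-34909206 in intron 2, scored 1145.61 in DMSO and 588.44 in MC2580. It was centred 140.9 kb downstream of the distal TSS and lay 17882 bp from the nearest annotated TSS. A second intron 2 peak, chr21:35025721-35027603, centred 22.7 kb downstream of the distal TSS, scored 1036.66 and 403.53. A haematopoietic enhancer is known in the intron that separates the promoters, but no enhancer annotation was used here. Next in score, chr21:34834877-34836771 in intron 6, scored 922.64 in DMSO and 93.26 in MC2580. Its score ratio of 0.101 was the lowest of the group, and only 0.991% of all pairs of peaks in the lists had a lower one.

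Both other shared RUNX1 sites were intronic as well. The intron 5 peak with adjoining RUNX and PU.1 words, chr21:34865215-34866376, scored 393.2 in DMSO and 155.66 in MC2580, and the peak chr21:34911871-34912966 in intron 2 scored 171.42 and 53.95. All 5 shared sites kept their place while their scores were lower in MC2580, by ratios of 0.101 to 0.514. Their DMSO scores had a median of 922.64, against 144.49 for the 10 RUNX1 peaks found in DMSO alone, which ranged from 63.75 to 227.15.

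**Figure D2:**
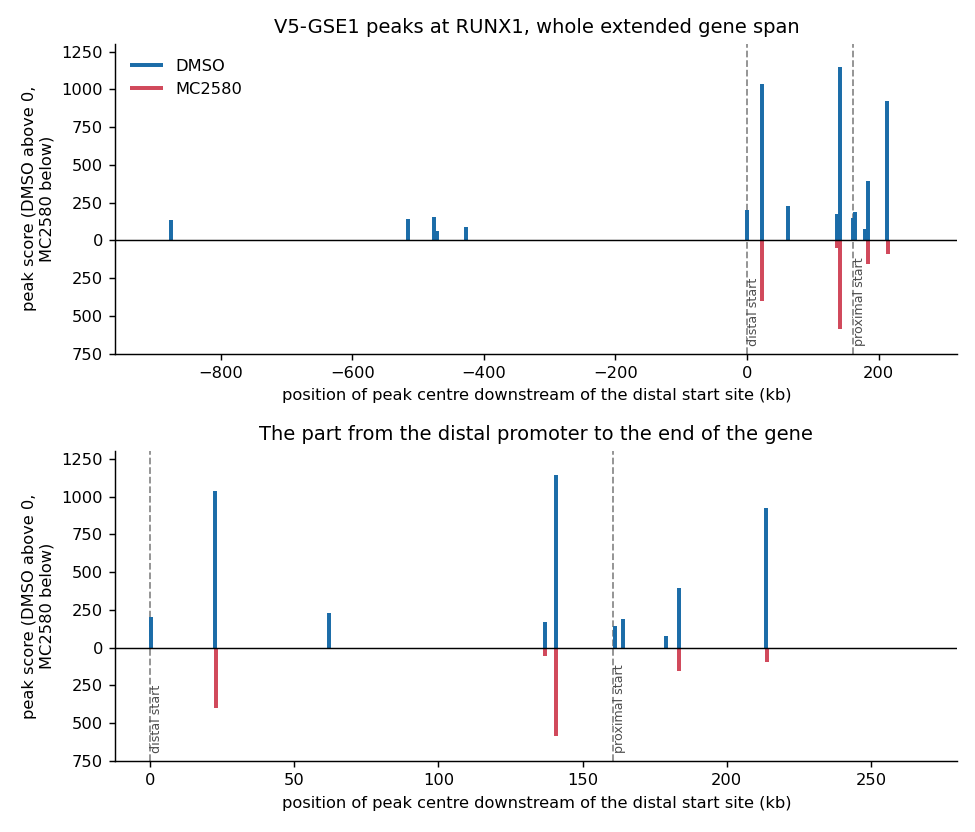
Scores of RUNX1 peaks against the position of the peak centre in kb downstream of the distal TSS, with DMSO bars above 0 and MC2580 bars below, over the whole window (top) and the coding transcripts (bottom). Dashed lines mark both promoters, bar widths are not to scale, and the 5 MC2580 bars stand opposite DMSO bars, none of them at a promoter.

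Peaks within 3 kb of a TSS are called promoter peaks here. RUNX1 had 3 in DMSO and none in MC2580. The distal promoter peak, chr21:35048516-35049758, covered the TSS with exons 1 and 2 and scored 201.26. The proximal promoter peak, chr21:34887719-34888649, scored 144.94 with its edge 41 bp from the TSS, and a further peak 932 bp from an annotated TSS, chr21:34884698-34886251, scored 185.7. The nearest MC2580 peaks lay 21117, 19342 and 18407 bp away. The highest RUNX1 peak found in DMSO alone was not at a promoter but 62.2 kb downstream of the distal TSS (chr21:34986502-34987733, score 227.15). Another 5 peaks, also DMSO alone, lay far upstream of the distal TSS, with centres from -426.6 to -876.0 kb and scores from 63.75 to 154.8.

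The distal RUNX1 promoter peak held 4 RUNX words, or 3.22 per kb, a rate above that of 96.7% of DMSO peaks and the highest among the RUNX1 peaks. Rates were higher in DMSO peaks beside CBFA2T2 (chr20:33473995-33474785, 5.06 per kb) and RUNX3 (chr1:24872304-24873201, 3.34 per kb). The words of the RUNX1 peak are shown because 2 of them are separated by a pair of bases, 5′ to 3′ on the plus strand, opposite to the gene, with the RUNX word in capitals. Positions are given from the distal TSS in the direction of RUNX1 transcription.
RUNX1 distal, 159 bp (chr21:35049171-35049200): gctgcgaaacccTGTGGTttgcattcagtg
RUNX1 distal, 75 bp (chr21:35049255-35049284): ggctacccaactTGTGGTtctgtggttgtt
RUNX1 distal, 67 bp (chr21:35049263-35049292): aacttgtggttcTGTGGTtgtttatgaggc
RUNX1 distal, -235 bp (chr21:35049565-35049594): cctgttgttattTGTGGTttttggaactac

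RUNX2 and RUNX3 had lower or more distant peaks. At RUNX2 (ENSG00000124813.23, chr6:45328157-45664349, plus strand) the promoter peak, chr6:45424177-45425082, lay 1600 bp from a TSS of the proximal promoter and scored 72.15 in DMSO. The highest was an intron 4 peak, chr6:45436579-45437490, at 142.75, and both were found in DMSO alone. Beyond the end of the gene, chr6:45697329-45698309 scored 114.78 in DMSO and 50.09 in MC2580, 274752 bp from the nearest RUNX2 TSS. An MC2580 score so close to the threshold means that this overlap rests on a peak that was barely called. The remaining RUNX2 peaks scored 84.98 in intron 6 and 104.22 downstream (chr6:45665554-45666537).

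At RUNX3 (ENSG00000020633.19, chr1:24899511-24965121, minus strand) none of the 4 DMSO peaks lay in the gene and MC2580 had none in the window. The nearest MC2580 peak lay 50759 bp from the gene, just past the 50 kb extension, so that the count of 0 rests on the window edge. The peak chr1:24863318-24865082, whose CA-rich centre is printed above, lay downstream, 63716 bp from the nearest RUNX3 TSS, and scored 534.11. It was the single peak of 500 or more in the group without an MC2580 counterpart, and 14566 bp separated it from the closest MC2580 peak. The other 3 scored 91.89, 55.34 and 54.44, the highest of them at chr1:24872304-24873201.

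At CBFB (ENSG00000067955.15, chr16:67028984-67101058, plus strand) no peak lay within the gene or within 3 kb of its TSS. A peak downstream, chr16:67110075-67111188, scored 156.95 in DMSO and 101.87 in MC2580. It covered a TSS of the neighbouring gene PHAF1 and lay 16677 bp from the nearest annotated CBFB TSS. The other, chr16:67013655-67014970, upstream of CBFB and found in DMSO alone at 93.86, was nearer to CES4A (13081 bp) than to CBFB (14014 bp). Neither peak of the CBFB window was thus nearest to CBFB. In contrast, all 15 RUNX1, 5 RUNX2 and 4 RUNX3 DMSO peaks had the member as the nearest protein-coding gene by TSS. Over the group 31 of the 36 DMSO and 8 of the 12 MC2580 peaks did. The same share over all gene windows was not computed, so these counts are not read as a trait of the group.

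CBFA2T3 (ENSG00000129993.15, chr16:88874858-88977207, minus strand), which encodes a corepressor of haematopoietic progenitors, was the only member with promoter peaks in MC2580. The peak chr16:88978131-88979679, 924 bp upstream of the distal TSS, scored 887.5 in DMSO and 559.92 in MC2580. Beside it, chr16:88976655-88977578 covered that TSS and exon 1 and scored 108.13 and 92.26, a ratio of 0.853 and the highest of the group. Downstream of the gene, chr16:88839786-88841118 scored 671.81 and 158.32, a ratio of 0.236. That peak lay 38918 bp from the nearest CBFA2T3 TSS, and the TSS of TRAPPC2L was nearer at 15102 bp. Thus the site upstream of the distal TSS kept more of its score than the downstream one, although their DMSO scores were of similar size.

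Both other promoter peaks of CBFA2T3 were found in DMSO alone. They were chr16:88957889-88958711 in intron 1, scoring 73.42 and lying 114 bp from a TSS, and chr16:88880874-88881555 over exon 9 and an internal TSS, scoring 54.62, with PABPN1L as the nearest gene by coding TSS (14214 bp). Of the remaining peaks, that in intron 1 scored 82.41 and that 4914 bp upstream scored 64.73.

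**Figure D3:**
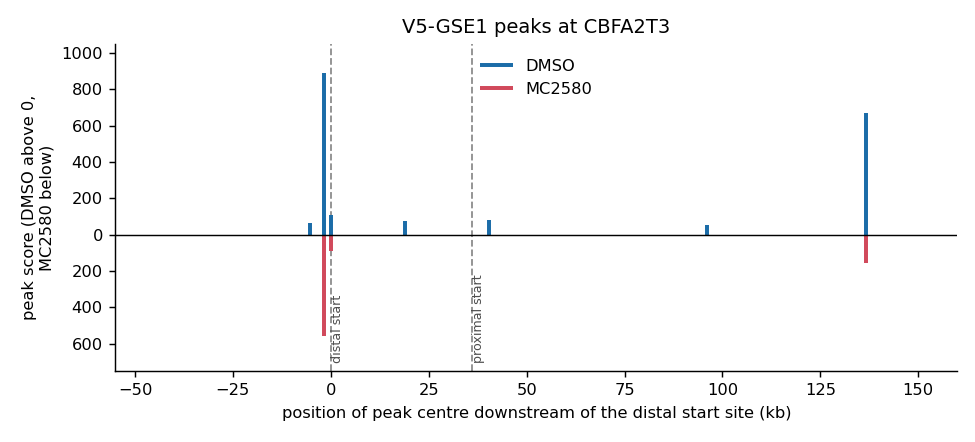
Scores of CBFA2T3 peaks against the position of the peak centre in kb downstream of the distal TSS, with DMSO bars above 0, MC2580 bars below and both promoters dashed. Bar widths are not to scale, and the MC2580 bars stand at the distal promoter (559.92 and 92.26) and 136.7 kb downstream (158.32).

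CBFA2T2 (ENSG00000078699.22, chr20:33490075-33650036, plus strand) had no promoter peak. Its highest peak, chr20:33689583-33690775, scored 260.61 in DMSO and 70.92 in MC2580, lay downstream of the gene and was nearer to E2F1 (3198 bp) than to CBFA2T2 (50844 bp). The other DMSO peaks, chr20:33473995-33474785 upstream and chr20:33630084-33630755 in intron 8, scored 59.37 and 60.39 and were found in DMSO alone. The upstream one held 4 RUNX words, or 5.06 per kb. The single MC2580 peak of the group without a DMSO counterpart, chr20:33673459-33674145, scored 52.48 and lay 214 bp from the TSS of NECAB3. The peaks of the DMSO list are numbered, and 1 number is missing from the stretch between 33630755 and 33689583 that holds it. Whether a DMSO peak was called there and later left out cannot be read from the lists, and the part of the missing number in this difference was not tested.

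RUNX1T1 (ENSG00000079102.17, chr8:91954972-92103286, minus strand) had no peak in its window of 248 kb. The nearest DMSO peak lay 869010 bp from the gene and the nearest MC2580 peak 4784444 bp away. The absence says only that no peak passed the threshold there.

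Over the 7 genes, 8 DMSO and 2 MC2580 peaks were promoter peaks. Members with a promoter peak numbered 3 of 7 in DMSO (RUNX1, RUNX2 and CBFA2T3), against 16.1% of protein-coding genes. In MC2580 it was 1 of 7 (CBFA2T3), against 7.87%. Of the 8 promoter peaks 2 were shared, and of the other 28 DMSO peaks 9 were. These counts are small and were not tested, and the shares were not adjusted for the 4 to 41 start sites of a member. Median DMSO scores were alike, 126.53 at promoters and 126.19 elsewhere.

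The 11 sites present in both lists each matched a single peak of the other list, and all 11 scored lower in MC2580, as did 76.7% of the 5449 such pairs in the lists and 90.6% of the 2263 outside crowded bins. Their median ratio of MC2580 to DMSO score was 0.396, with a range of 0.101 to 0.853. The median of all pairs was 0.638, and that of pairs outside crowded bins 0.421, close to the group. The ratio was 0.436 at RUNX2, 0.649 at CBFB and 0.272 at CBFA2T2. All 11 MC2580 peaks were narrower than their DMSO counterparts, as in 73.8% of all pairs and 85.7% outside crowded bins. Of the 11, 7 lay entirely inside the DMSO peak, against 43.4% of all pairs and 63.1% outside crowded bins.

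**Figure D4:**
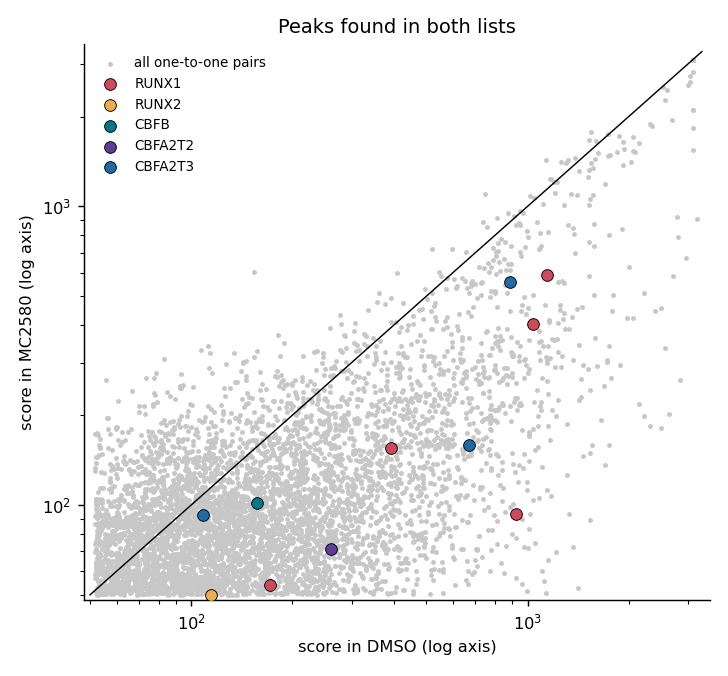
Score in MC2580 against score in DMSO on log axes for all 5449 pairs of single overlapping peaks (grey) and the 11 pairs at the RUNX and core-binding factor genes (coloured by gene), with the line of equal scores. All 11 coloured points lie under the line, with an intron 6 peak of RUNX1 (922.64 and 93.26) farthest from it.

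The RUNX word TGTGGT was counted on both strands in the central 200 bp of each peak. It was present in 12 of 36 DMSO member peaks (33.3%, interval 20.2 to 49.7), against 23.2% of all DMSO peaks and 14.0% of windows lying 2000 bp to either side. In MC2580 it was present in 5 of 12 (41.7%, interval 19.3 to 68.0), against 19.2% of all peaks and 13.9% of the windows beside them. The DMSO share of the group is therefore not separated from that of the list by counting error, and the MC2580 interval begins just above the share of its list. With 400 bp windows the MC2580 share was again 41.7%, against 32.3% of the list, within the interval. Over whole peaks, 26 of 36 DMSO members (72.2%) held the word, with 1.07 matches per kb, against 62.1% and 0.944 per kb in the whole list. RUNX1 accounted for 21 of the 42 matches, in 13 of its 15 peaks. The longer word TGTGGTTT was present in the centres of 3 of 36 DMSO members (8.33%) and 4.63% of the list. The shorter one was present, anywhere in the peak, in 9 of the 11 shared DMSO peaks and in 17 of the 25 found in DMSO alone.

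Words of other factor families were rarer in the DMSO members, as they were in the whole DMSO list. The words differ in length and in free positions, so their shares are to be read against the list and not against each other. There the AP-1 word TGANTCA was present in 19.4% of centres (interval 9.75 to 35.0), against 9.26% of the list. The CEBP word TTGCNNAA was present in 16.7%, against 13.9%. The GATA word AGATAA stood at 13.9% against 10.7%, and the PU.1 word GAGGAAGT at 2.78% against 2.91%. In DMSO only the AP-1 interval excluded the share of the list, by a narrow margin and without adjustment for the number of words examined. With 400 bp windows the AP-1 share was 27.8%, with an interval starting at 15.8, against 16.3%, and the exclusion was lost. In MC2580 the PU.1 word was present in 2 of 12 member centres (16.7%, interval 4.70 to 44.8), at RUNX1 intron 5 and the CBFA2T3 distal promoter, against 1.91% of the list. At 400 bp it was again 2 of 12, against 3.42%. Both sites are also DMSO peaks that hold the word, at CBFA2T3 outside the central 200 bp. Matches of different words were counted separately even where they overlapped.

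**Figure D5:**
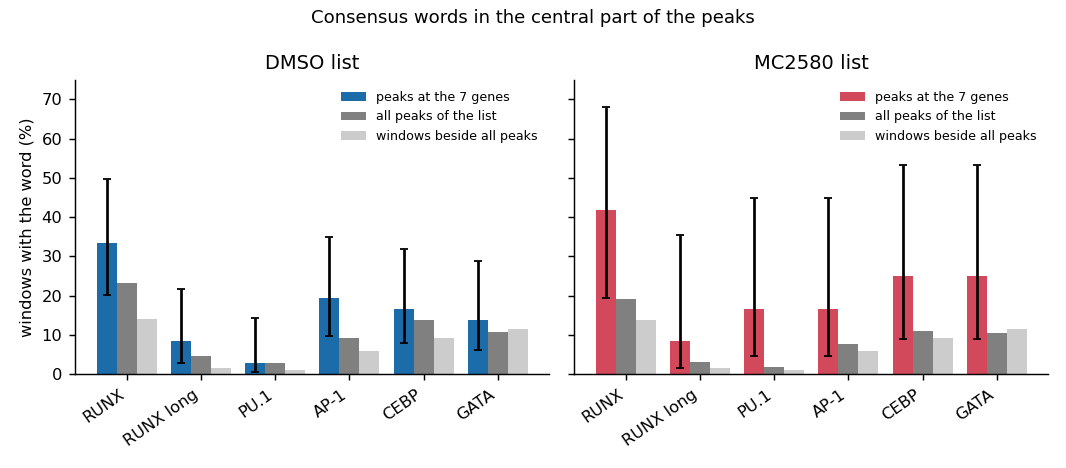
Share of 200 bp centres (%) with each consensus word in member peaks (coloured bars, with 95% Wilson intervals), all peaks of the list (dark grey) and windows 2000 bp to either side of all peaks (light grey), for DMSO (left) and MC2580 (right). RUNX is TGTGGT and RUNX long is TGTGGTTT, and the RUNX bars, 33.3% and 41.7%, are the tallest of the member bars in both lists. Among the bars of the whole lists RUNX is the tallest as well, at 23.2% and 19.2%.

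Genes around the RUNX proteins were counted in the same way. Of 20 genes for cofactors of RUNX or ETO proteins, 5 (25.0%) had a promoter peak in DMSO and 3 (15.0%) in MC2580, against 16.1% and 7.87% of protein-coding genes. Among them, TCF12 had a top promoter score of 285.74 in DMSO and 70.63 in MC2580, and LDB1 one of 93.33 and 56.59. TCF12 is an E protein bound by ETO proteins, and LDB1 is an adaptor of haematopoietic enhancer complexes. TLE4 and TCF3 had promoter peaks in DMSO alone. HDAC1, HDAC2, HDAC3, EP300 and CREBBP had none in either list.

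Of 15 textbook RUNX1 target genes, 5 (33.3%) had a promoter peak in DMSO and 3 (20.0%) in MC2580, against 16.1% and 7.87% of protein-coding genes. Counts of the cofactor and target genes are small and were not tested. MPO, myeloperoxidase of the neutrophil granule, had the highest score, with 816.58 in DMSO and 146.32 in MC2580. GFI1, a repressor that recruits LSD1, scored 417.8 and 71.3. CSF1R, the receptor for macrophage colony-stimulating factor, scored 208.9 in DMSO and had no promoter peak in MC2580. AZU1, another granule protein, scored 91.51 and 80.59, and the cell cycle inhibitor CDKN1A scored 52.4 in DMSO alone. SPI1 and CEBPA had no promoter peak in either list. At TCF12, MPO, GFI1 and AZU1 the highest promoter peaks of both lists overlapped and scored lower in MC2580, as did most pairs in the lists. At LDB1 the promoter peaks of the lists lay at different sites.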

How the data were processed

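The study asked where V5-tagged GSE1 lies on chromatin and how LSD1 inhibition changes this. Reads were aligned by the authors with Bowtie to hg38, keeping unique matches with at most 2 mismatches, and peaks were called with MACS (p of 1e-05) against the respective input and the EV ChIP. How both backgrounds were combined is not given in the sources used here. The deposited score of each peak is minus 10 times log10 of its p-value. Lists were assigned to conditions by their names, and nothing was pooled. The DMSO list lacks 1165 of 22566 peak numbers and the MC2580 list none. Of 79 sequence names in the lists, 79 are in the reference genome used for sequences.

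Overlap of 1 bp, 50 kb windows, 3 kb promoters and 200 bp word windows were used. Described were all promoter peaks, the 3 highest DMSO peaks, the highest MC2580 peak and the highest peak in a single list for each gene. Values of 1 gene of the cofactor list are not reported here. The members, gene lists and tests were chosen with earlier results of these data known. Interval functions were tested on simulated data. Alternatives were a score of at least 100, other windows, promoter definitions and overlap rules, merged peaks, 400 bp windows and a longer word. Comparison outside crowded bins and the CCDS span were added after seeing the data. Scripts ran in Python 3.11.15 with matplotlib 3.10.9, scipy 1.17.1, pandas 2.3.3 and numpy 2.4.6.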

Additional observations from a re-analysis of the deposited data

How the results depend on the processing

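Of 48 values computed under alternatives, 36 stayed within a tolerance around the reported value and 12 moved outside it. The tolerance was wide, so that a value within it need not be close. With an extension of 10 kb or 100 kb the DMSO peaks numbered 27 or 46, against 36. The MC2580 peaks numbered 8 or 18, against 12, and all these counts lay within the tolerance. A score of at least 100 left 21 DMSO and 6 MC2580 peaks and put the MC2580 share overlapping DMSO at 100%. Gene spans without extension left 23 and 6 peaks and likewise gave 100%, as did an extension of 10 kb. Promoter peaks fell to 5 in DMSO at a score of at least 100, and MC2580 promoter peaks to 1 both at that score and within 1 kb of a TSS. With TGTGGTTT in place of TGTGGT, the share of centres with the word was 8.33% in DMSO and 8.33% in MC2580. The ratio of MC2580 to DMSO peaks ranged from 0.261 without extension to 0.391 with 100 kb. Within the CCDS spans extended by 50 kb, an alternative chosen after seeing the data, 29 DMSO and 11 MC2580 peaks remained, a ratio of 0.379. No paired analysis was possible because each group held 1 library, and for the same reason no replicate could be left out. Depth was unknown, and its effect on the number of peaks and the scores was not measured.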

Other observations

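By the number of peaks in the extended span, the gene most like RUNX1 (15 DMSO and 5 MC2580 peaks) was STX1A, with the same 15 and 5 in a window of 120 kb against 1317 kb for RUNX1. In STX1A 2 of the DMSO peaks were shared, against 5 in RUNX1. Next were GAS7 (14 and 5, of which 4 shared) and MLXIPL (15 and 6, of which 6 shared), chosen by shared peaks and then by name among 10 genes that differed from RUNX1 by 1 peak in all. Likeness here is the sum of the differences of both numbers, over 2 lists.

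The gaps in the DMSO numbering touched 2 of the 7 genes. Besides the number missing at CBFA2T2, 2 were missing between 44523699 and 45424177 on chromosome 6. That interval includes both promoters of RUNX2 but begins far upstream of its window, so the missing numbers cannot be placed inside the window. None was missing between the peaks around RUNX1, RUNX3, CBFB, CBFA2T3 or RUNX1T1.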
